A study of Mus musculus with 8 samples.

Results

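The arterial and venous identity genes are 8 genes, Ephb4, Nrp1, Nrp2, Efnb2, Hey1, Hey2, Gja4 and Gja5, chosen by symbol from the 24963 genes measured in mouse uterus. RNA-seq was done on whole uterine tissue at gestation day (GD) 3.5 from 4 Nr2f2 f/f mice, which carry floxed Nr2f2 alleles without Cre and were used as wild type (controls), and from 4 Nr2f2 d/d mice (mutants), which carry the same floxed alleles and a Cre knocked into 1 Pgr allele (Pgr Cre/+; Nr2f2 f/f). The females, labelled as strain C57B6/J and 8 weeks old at mating, were paired with vasectomized males and thus carried no embryos, with no other treatment. Cre from the Pgr locus deletes Nr2f2 in cells that express the progesterone receptor gene Pgr, and cells that do not express it can keep Nr2f2, so whole tissue from these mice holds both. The labels number the libraries as replicates of a group and do not name the animals, so p-values measure the spread between these libraries. All 8 genes passed the filter of a mean of at least 0.5 FPKM (fragments scaled to the length of the gene and the total of the library), as did 14323 genes in all.

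Arteries and veins are lined by endothelial cells that carry different genes from early in development. In arterial cells VEGF and Notch signalling turn on Hey transcription factors and the ligand ephrin-B2 (Efnb2), whereas venous cells carry its receptor EphB4 and the nuclear receptor COUP-TFII, the product of Nr2f2, which in embryonic veins holds Notch signalling and neuropilin-1 down. Neuropilin-1 (Nrp1) is a co-receptor for VEGF and semaphorins found more in arteries, neuropilin-2 (Nrp2) is its relative in veins and lymphatic vessels, and Gja4 and Gja5 encode connexins that join arterial endothelial cells through gap junctions. None of the 8 genes is confined to endothelium, and the uterus is rich in other cells.

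On mm10 (GENCODE vM21) the 8 protein-coding genes lie on 6 chromosomes. Efnb2 (ephrin-B2) spans chr8:8617434-8661242 on the minus strand and Nrp1 chr8:128358604-128503363 on the plus strand. Ephb4 spans chr5:137350109-137378669 and Nrp2 chr1:62703285-62818695, both on the plus strand. Hey1 spans chr3:8663359-8667256 and Hey2 chr10:30832359-30842801, both on the minus strand. Gja4 spans chr4:127311421-127314039 on the minus strand and Gja5 chr3:96904693-97077416 on the plus strand. Other genes share 2.87% of the exon bases of Gja5, 0.711% of those of Ephb4 and 0.818% of those of Nrp1, and none of those of the other 5.

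RefSeq sequence of the 250 bases before the start (GRCm38.p6) was at hand for 7 of the 8 genes. It is shown for Nrp2 and Gja4, which had the lowest log2 fold changes, for Efnb2, which had the highest, and for Nrp1, which with Efnb2 held a match to GGTCA, the core of the half-site that NR2F2 binds. Each reads from 5′ to 3′ on the strand of its gene, and the capitals mark the match on the opposite strand (TGACC).
Nrp2: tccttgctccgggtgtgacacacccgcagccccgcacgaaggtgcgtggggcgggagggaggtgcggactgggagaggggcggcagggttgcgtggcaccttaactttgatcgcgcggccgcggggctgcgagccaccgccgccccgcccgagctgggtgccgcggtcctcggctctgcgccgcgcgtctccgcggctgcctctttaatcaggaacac
Gja4: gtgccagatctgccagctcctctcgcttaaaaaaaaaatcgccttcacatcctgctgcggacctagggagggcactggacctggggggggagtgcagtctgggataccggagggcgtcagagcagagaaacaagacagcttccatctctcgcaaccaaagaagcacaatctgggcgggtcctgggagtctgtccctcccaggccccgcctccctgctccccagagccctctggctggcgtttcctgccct
Efnb2: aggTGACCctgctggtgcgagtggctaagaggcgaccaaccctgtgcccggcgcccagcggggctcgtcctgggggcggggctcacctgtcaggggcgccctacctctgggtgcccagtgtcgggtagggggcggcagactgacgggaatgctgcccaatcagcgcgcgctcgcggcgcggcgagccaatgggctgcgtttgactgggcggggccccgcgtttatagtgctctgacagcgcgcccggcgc
Nrp1: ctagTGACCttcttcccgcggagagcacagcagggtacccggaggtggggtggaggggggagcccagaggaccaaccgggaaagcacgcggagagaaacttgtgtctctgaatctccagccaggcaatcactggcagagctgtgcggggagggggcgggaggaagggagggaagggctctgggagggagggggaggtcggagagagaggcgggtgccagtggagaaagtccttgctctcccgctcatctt
The stretches are chr1:62703067-62703284 for Nrp2, which ends 32 bases short of the RefSeq start because an annotated exon begins there, chr4:127314040-127314289 for Gja4, chr8:8661243-8661492 for Efnb2 and chr8:128358823-128359072 for Nrp1. The last begins 219 bases inside the GENCODE span of Nrp1, whose first transcript starts further upstream, and holds no annotated exon. Searched on both strands of the full 250 bases, GGTCA was found 247 to 243 bases before the start of Efnb2 and 246 to 242 before that of Nrp1. It was not found in the windows of the other 5 genes, and 35.2% of the 32851 RefSeq promoters hold it. The Gja5 window began 127459 bases inside the GENCODE span of Gja5, so the sequence before its GENCODE start was not searched. TGGGAA, the core bound by the Notch effector RBPJ, was found in Hey2 alone of the 7, 207 to 202 bases before its start, and in 21.6% of all promoters. These matches are letters in a window, not measured binding.

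The checks of the libraries come first. Nr2f2 ranged from 21.8 to 25.7 FPKM in control uteri and from 6.90 to 9.74 in mutant uteri, with a log2 fold change (log2FC) of -1.39 (standard error, SE, 0.118, limma adjusted p = 0.00549 after Benjamini-Hochberg adjustment). Library totals, recovered approximately from short genes, were 61500000 to 92550000 fragments. Within its group of 4, Nr2f2 f/f replicate 2 stood apart at 5.95% of the tested genes and Nr2f2 d/d replicate 3 at 2.92%, against 0.356% to 1.35% for the other 6 libraries. The uterus carried endothelial markers throughout, since all 22 genes of a pan-endothelial list (Pecam1, Cdh5, Tek, Tie1 and others) were tested.

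The 8 genes fell into no single pattern by vessel type. Over all 14323 genes 2.62% passed limma at an adjusted p of 0.05, 1.53% lower and 1.09% higher in the mutants, and 1 of the 8 passed: Nrp2, a venous gene, which fell. At the threshold of the study's methods, a fold of at least 1.4 with an unadjusted p below 0.05, which 8.8% of all genes met (4.1% lower and 4.7% higher), Nrp2 and the arterial gene Gja4 were lower and the arterial gene Efnb2 was higher. Nrp2 and Gja4 met it in all 18 fits run, Efnb2 in 9 of them and Hey2 in 2. These same 3 genes showed no overlap of control and mutant values, which held for 15.4% of all genes tested, 9.91% lower and 5.49% higher in mutant uteri. Of all 8 log2FC values 5 were below 0 and 3 above, and 53.3% of all genes tested were below 0. The log2FC values are differences of mean log2(FPKM + 0.5), Nr2f2 d/d minus Nr2f2 f/f, and the value added understates those of low genes such as Hey2.

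**Figure D1:**
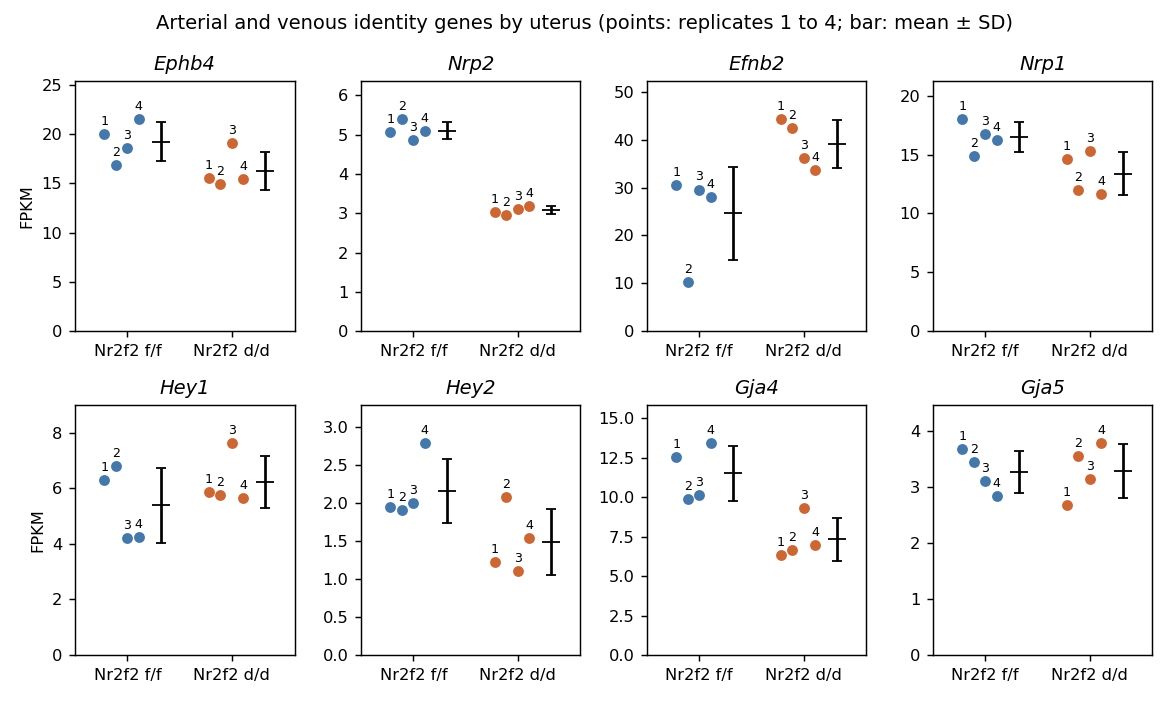
FPKM (y axis, from 0) of the 8 arterial and venous identity genes in each library, with Nr2f2 f/f in blue and Nr2f2 d/d in orange, replicate numbers above the points, and the mean ± SD of 4 libraries as a black bar. Nrp2 and Gja4 are lower and Efnb2 is higher in all 4 Nr2f2 d/d libraries than in any Nr2f2 f/f library, and the groups overlap for the other 5 genes.

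Of the venous receptors, Ephb4, the receptor tyrosine kinase for ephrin-B2, held 19.999, 16.9, 18.6 and 21.5 FPKM in control replicates 1 to 4 and 15.6, 14.9, 19.1 and 15.5 FPKM in mutant replicates 1 to 4. In all, 3 of the mutant libraries lay below every Nr2f2 f/f library, and replicate 3 lay within the Nr2f2 f/f range, apart from its own group. The mean was 19.2 ± 1.99 FPKM in control uteri and 16.3 ± 1.90 in mutant uteri (SD, n = 4 each), or 84.6% of the control level. The log2FC was -0.24 (SE 0.104, 95% interval -0.48 to 0.0037, limma adjusted p = 0.243). The exact two-sided permutation test over the 70 arrangements of the 8 libraries gave p = 0.0857, where 4 against 4 can give no less than 0.0286. In whole tissue, fewer cells of a type and less RNA per cell cannot be told apart, for this gene and for all that follow.

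Nrp2, which binds class 3 semaphorins and VEGF-C, was the tightest of the 8 genes. It held 5.07, 5.39, 4.86 and 5.09 FPKM in control replicates 1 to 4 and 3.04, 2.95, 3.12 and 3.19 FPKM in mutant replicates 1 to 4. Every Nr2f2 d/d library lay below every Nr2f2 f/f library, with a gap wider than the whole spread within either group. Its mean fell from 5.10 ± 0.221 to 3.07 ± 0.1005 FPKM (SD, n = 4 each), to 60.2% of the control level. The log2FC was -0.65 (SE 0.0685, 95% interval -0.81 to -0.49, limma adjusted p = 0.00795, exact permutation p = 0.0286), and Nrp2 ranked 19 by p among all genes tested. Over the 8 fits with 1 library removed, the log2FC stayed between -0.67 and -0.62 and the limma adjusted p between 0.0163 and 0.0375. With the title's replicate number as a block, which does not pair the libraries, the limma adjusted p was 0.113.

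Nrp1, the arterial counterpart, was more abundant than Nrp2 in every library. It held 18.0, 14.9, 16.8 and 16.3 FPKM in control replicates 1 to 4 and 14.7, 12.0, 15.3 and 11.6 FPKM in mutant replicates 1 to 4. The groups overlapped, because Nr2f2 d/d replicate 3 exceeded Nr2f2 f/f replicate 2, while the other 3 Nr2f2 d/d libraries lay below all controls. The mean was 16.5 ± 1.28 FPKM in control uteri and 13.4 ± 1.85 in mutant uteri (SD, n = 4 each). The log2FC of -0.30 (SE 0.108, 95% interval -0.54 to -0.05) did not pass the adjustment (limma adjusted p = 0.175, exact permutation p = 0.0571). The ratio of Nrp1 to Nrp2 FPKM in a library was 2.76 to 3.56 in Nr2f2 f/f, with a median of 3.33, and 3.65 to 4.91 in mutant uteri, with a median of 4.44. These ranges did not overlap, and the ratio rests on the Nrp1 and Nrp2 values given above, so it is a description without a test.

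Efnb2, the arterial ligand of EphB4, was the only one of the 3 non-overlapping genes that was higher in mutant uteri. It held 30.6, 10.2, 29.6 and 27.9 FPKM in control replicates 1 to 4 and 44.3, 42.4, 36.1 and 33.7 FPKM in mutant replicates 1 to 4. All Nr2f2 d/d libraries lay above all controls, and Nr2f2 f/f replicate 2 lay far below the other 3 controls. The mean was 24.6 ± 9.66 FPKM in control uteri and 39.1 ± 5.03 in mutant uteri (SD, n = 4 each). The log2FC was 0.77 (SE 0.331, 95% interval 0.0089 to 1.53, limma adjusted p = 0.232, exact permutation p = 0.0286). Removing Nr2f2 f/f replicate 2 left a log2FC of 0.40 (limma adjusted p = 0.101), under the study's fold of 1.4, and removing any 1 of the 4 mutant libraries brought the unadjusted limma p to 0.0592 to 0.104, so the study-threshold call of Efnb2 was lost in each of these 5 fits. In the same 5 fits the exact permutation p was 0.0571 to 0.0857, and over all 8 fits with 1 library removed the limma adjusted p ranged from 0.101 to 0.409.

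The ratio of ligand to receptor was higher in every mutant library than in any control. The ratio of Efnb2 to Ephb4 FPKM was 0.605 to 1.59 in the Nr2f2 f/f libraries, with a median of 1.42, and 1.89 to 2.84 in the Nr2f2 d/d libraries, with a median of 2.504. The lowest ratio belonged to Nr2f2 f/f replicate 2, and the highest control ratio was still below the lowest Nr2f2 d/d ratio. As with the neuropilins, no test was run on a ratio of values already compared. Efnb2 alone already separated the groups, and how many other gene pairs give ratios without overlap was not counted.

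Hey1 and Hey2, the basic helix-loop-helix repressors that Notch signalling induces, went with wide spreads. Hey1 held 6.31, 6.80, 4.21 and 4.26 FPKM in control replicates 1 to 4 and 5.87, 5.77, 7.64 and 5.66 FPKM in mutant replicates 1 to 4. The controls split into a higher and a lower pair on either side of 3 of the Nr2f2 d/d libraries, and only Nr2f2 d/d replicate 3 exceeded them all. The log2FC of Hey1 was 0.21 (SE 0.174, 95% interval -0.19 to 0.61, limma adjusted p = 0.517, exact permutation p = 0.286), and 0.11 to 0.32 over the 8 fits with 1 library removed. Hey2, the least abundant of the 8 genes on average, held 1.95, 1.91, 2.00 and 2.79 FPKM in control replicates 1 to 4 and 1.23, 2.08, 1.10 and 1.54 FPKM in mutant replicates 1 to 4. In 3 of 4 Nr2f2 d/d libraries Hey2 lay below every control, and replicate 2 lay among them. Its log2FC was -0.43 (SE 0.175, 95% interval -0.84 to -0.03, limma adjusted p = 0.209, exact permutation p = 0.114). The unadjusted limma p of Hey2 was 0.0374, as 21.2% of all genes had one under 0.05. It met the study's threshold only with 0.1 added before the log2, at -0.53, or without Nr2f2 d/d replicate 2, at -0.57. The ratio of Hey1 to Hey2 overlapped between the groups, at 1.53 to 3.57 in control uteri and 2.77 to 6.92 in mutant uteri.

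The connexin genes of arterial endothelium differed in their values. Gja4 held 12.6, 9.91, 10.2 and 13.5 FPKM in control replicates 1 to 4 and 6.35, 6.68, 9.35 and 6.97 FPKM in mutant replicates 1 to 4. The groups did not overlap, but Nr2f2 d/d replicate 3 came close to the lowest control. The mean was 11.5 ± 1.76 FPKM in control uteri and 7.34 ± 1.37 in mutant uteri (SD, n = 4 each), or 63.7% of the control level. The log2FC was -0.62 (SE 0.145, 95% interval -0.95 to -0.29, limma adjusted p = 0.0643, exact permutation p = 0.0286). Gja4 thus did not pass the adjustment with all 8 libraries. Over the 8 fits with 1 library removed the limma adjusted p was 0.0402 to 0.175, and Gja4 passed in 1 fit, without Nr2f2 d/d replicate 3. Removing any 1 of the 4 controls brought its exact permutation p to 0.0571.

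For Gja5 no difference was detected. It held 3.68, 3.45, 3.12 and 2.84 FPKM in control replicates 1 to 4 and 2.68, 3.56, 3.14 and 3.79 FPKM in mutant replicates 1 to 4. The groups lay over each other, with the lowest and the highest value both in mutant uteri. The mean was 3.27 ± 0.369 FPKM in control uteri and 3.29 ± 0.491 in mutant uteri (SD, n = 4 each), with a log2FC of 0.0041 (SE 0.120, 95% interval -0.27 to 0.28, limma adjusted p = 0.990). An interval of this width does not show that the levels were equal. The ratio of Gja4 to Gja5 was 2.87 to 4.74 in control uteri and 1.84 to 2.98 in mutant uteri, and these ranges just overlapped.

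**Figure D2:**
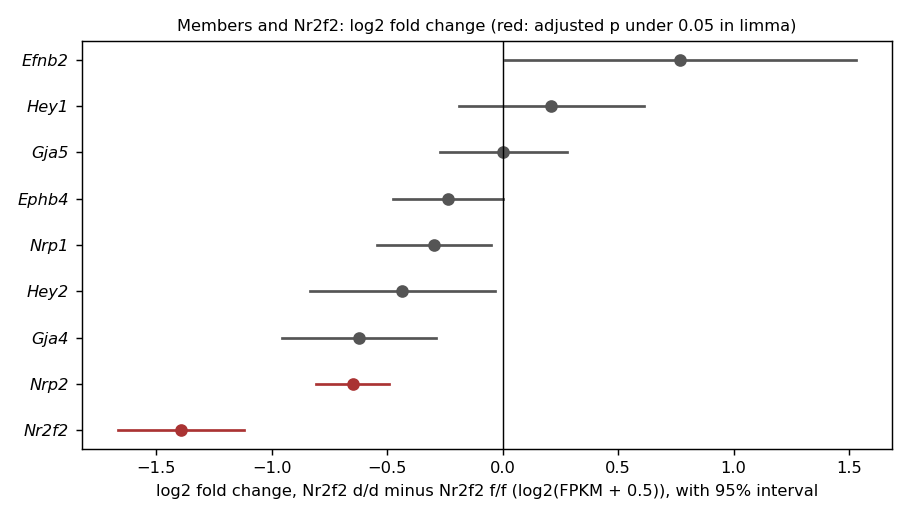
Log2FC of the 8 genes and of the deleted gene Nr2f2, as the difference of mean log2(FPKM + 0.5) of the 4 mutant and the 4 control libraries (x axis), with 95% intervals from limma as lines. Nrp2 and Nr2f2, in red, have an adjusted p under 0.05, and Gja4 has a similar difference to Nrp2 with a wider interval.

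FPKM are scaled to gene length, so levels can be set in order. In Nr2f2 f/f the means ran from Efnb2 (24.6 FPKM) through Ephb4, Nrp1, Gja4, Hey1, Nrp2 and Gja5 to Hey2 (2.16 FPKM). Neighbours in that order overlapped over the 4 libraries for Efnb2 and Ephb4, Ephb4 and Nrp1, and Hey1 and Nrp2, and the other neighbours did not. In Nr2f2 d/d the order was Efnb2 (39.1 FPKM), Ephb4, Nrp1, Gja4, Hey1, Gja5, Nrp2 and Hey2 (1.49 FPKM). There Efnb2 stood clear of Ephb4, while Ephb4 and Nrp1, Gja4 and Hey1, and Gja5 and Nrp2 overlapped. At the recovered depth the smallest level, of Hey2, rested on about 350 fragments in its shallowest library, a counting error of 5.36%, which is below its SD of 19.5% of the mean in control uteri and 29.3% in mutant uteri.

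The endothelial signal as a whole was lower in the mutant uterus. Of the 22 pan-endothelial genes 20 had a log2FC below 0, 9 fell at an adjusted p under 0.05 and 0 rose (16 and 0 at the study's threshold), with a median of -0.70, whereas the median of all genes tested was -0.02. Rasip1, needed to open vessel lumens, fell by 0.96 on the log2 scale (limma adjusted p = 0.0131), and Cdh5, the cadherin of endothelial junctions, fell by 0.99 (limma adjusted p = 0.0149). Their summed FPKM were 612 to 763 in control uteri and 431 to 575 in mutant uteri, and the mean log2 value of the list was 4.32 ± 0.197 and 3.71 ± 0.121 (SD, n = 4 each). With 1 library removed, the number of the 22 genes that passed was 0 without Nr2f2 d/d replicate 1 or 2, 2 without Nr2f2 f/f replicate 1 or 4, and 7 to 9 in the other 4 fits. The members were also expressed as a log2 difference from that mean in the same library.

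On that scale Nrp2 was -1.84 ± 0.173 in control uteri and -1.87 ± 0.0964 in mutant uteri, a difference of -0.04 (exact permutation p = 0.686, n = 4 each). Gja4 was -0.75 ± 0.268 and -0.75 ± 0.132, a difference of -0.01 (exact permutation p = 0.971). For these 2 lower genes, then, the groups overlapped once the endothelial list was taken out. Relative to the same list, Efnb2 was higher by 1.38, Hey1 by 0.82, Gja5 by 0.62 and Ephb4 by 0.38 in mutant uteri, each in all 4 libraries (exact permutation p = 0.0286 for each). Nrp1 differed by 0.31 (exact permutation p = 0.0857) and Hey2 by 0.18 (exact permutation p = 0.514), the latter at 0.0076 without Nr2f2 d/d replicate 2 and 0.33 without Nr2f2 d/d replicate 3. The same test gave a higher relative level in 60.1% of all genes tested and a lower one in 0.244%, because the reference itself was lower, so 4 of 8 is no more than genes in general show. The median relative difference was 0.35 over the 8 genes and 0.59 over all genes. Without any 1 of the 4 Nr2f2 d/d libraries, the exact p of Ephb4 on this scale was 0.0571 to 0.114, and that of Efnb2 was 0.0571 without Nr2f2 d/d replicate 1 or 2. Against Pecam1, Cdh5, Tek and Tie1 alone the differences were larger, at 0.59 for Ephb4, 0.53 for Nrp1 and 0.39 for Hey2, and those of Nrp2 and Gja4 turned to 0.18 and 0.21 (exact permutation p = 0.229 and 0.314).

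**Figure D3:**
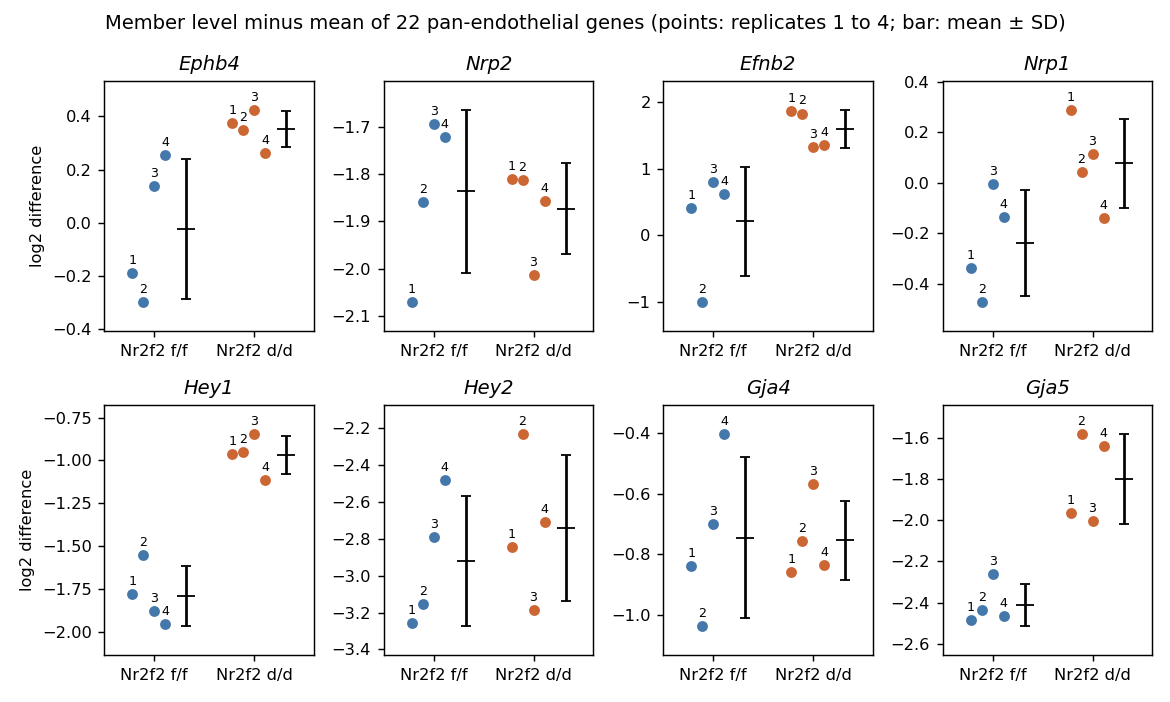
Level of each of the 8 genes minus the mean of 22 pan-endothelial genes in the same library (y axis, log2 difference; each panel has its own range), with Nr2f2 f/f in blue, Nr2f2 d/d in orange, replicate numbers above the points and mean ± SD of 4 libraries as a black bar. Nrp2 and Gja4 overlap between the groups, and Efnb2, Hey1, Gja5 and Ephb4 lie higher in all 4 Nr2f2 d/d libraries.

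Genes that work with the 8 were followed in lists, which share some genes and so are not separate evidence. Of 20 other arterial genes 14 were below 0, 2 fell at an adjusted p under 0.05 and 0 rose (5 and 2 at the study's threshold), with a median log2FC of -0.29. Sox18, an endothelial transcription factor, fell from 37.4 ± 4.16 to 21.9 ± 3.61 FPKM (SD, n = 4 each; limma adjusted p = 0.0281). Epas1, the hypoxia-inducible factor HIF-2 alpha, fell from 33.4 ± 6.94 to 18.9 ± 1.78 FPKM (SD, n = 4 each; limma adjusted p = 0.0366). Acvrl1, the receptor ALK1, followed with a log2FC of -0.39 (limma adjusted p = 0.0628).

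The 12 other venous genes, Nr2f2 among them, had a median of -0.76, which was -0.47 without Nr2f2 f/f replicate 1. With the deleted gene Nr2f2 left out of the list, the middle value was that of Emcn, at -0.70. Of the 12 genes 9 were below 0, 3 fell and 0 rose at an adjusted p under 0.05 (5 and 1 at the study's threshold). Besides the deleted gene they were Emcn, the sialomucin endomucin of veins and capillaries, which fell by 0.70 on the log2 scale (limma adjusted p = 0.0302), and Aplnr, the apelin receptor, which fell by 1.17 (limma adjusted p = 0.0328). How the lists differ from each other was not tested. With 1 library removed, Sox18, Emcn and Aplnr each passed in 2 of 8 fits and Epas1 in 1 of 8, with limma adjusted p-values of at most 0.117 and log2FC values that stayed below 0.

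Among the partners of Efnb2 and Ephb4, 1 of 7 changed. Efnb3, a relative of ephrin-B2, fell from 9.42 ± 1.67 to 5.26 ± 0.843 FPKM (SD, n = 4 each; limma adjusted p = 0.0421). Ephb6 had a log2FC of -0.39 (limma adjusted p = 0.0896) and Ephb3 of 0.27 (limma adjusted p = 0.252). The list median was -0.21, and it was -0.04 without Nr2f2 f/f replicate 1. Efnb3 passed in 0 of the 8 fits with 1 library removed, with a limma adjusted p of 0.0601 to 0.106 and a log2FC of -0.88 to -0.67.

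Of the ligands and co-receptors of neuropilins, 19 were tested, 12 were below 0, 2 fell and 0 rose (5 and 1 at the study's threshold), with a median of -0.10 that was -0.18 to -0.09 with 1 library removed. Plxna2, a plexin that carries semaphorin signals with neuropilins, fell from 1.81 ± 0.337 to 0.955 ± 0.1001 FPKM (SD, n = 4 each; limma adjusted p = 0.0422). Kdr, the VEGF receptor VEGFR2, fell from 13.7 ± 2.00 to 8.60 ± 1.27 FPKM (SD, n = 4 each; limma adjusted p = 0.0457), and Flt1 (VEGFR1) had a log2FC of -0.46 (limma adjusted p = 0.0529). Kdr and Flt1 are also on the pan-endothelial list. Plxna2 passed in 1 and Kdr in 2 of the 8 fits with 1 library removed.

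Notch pathway genes that act before or beside Hey1 and Hey2 were mostly below 0, at 15 of 18 tested, with a median of -0.23. Mfng, which adds sugars to Notch receptors, was the 1 that fell, from 10.6 ± 0.856 to 7.32 ± 0.938 FPKM (SD, n = 4 each; limma adjusted p = 0.0454). The ligand gene Jag2 had a log2FC of -0.48 (limma adjusted p = 0.0700) and Rbpj, the DNA-binding partner of Notch, of -0.46 (limma adjusted p = 0.158). Mfng passed in 1 of the 8 fits with 1 library removed. Some genes of this list, Jag2 included, were also counted among the other arterial genes.

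Connexins other than Gja4 and Gja5 had mostly higher values in the mutants. Of 18 such genes 9 passed the filter, 7 of them above 0, and 0 passed limma at an adjusted p of 0.05, with 2 at an unadjusted p below 0.05, Gjb5 and Gja3, and 0 without overlap of the groups. Of the 9, 2 (Gja3 among them) passed the filter only through the mutants, where they were higher. Gjb5 had a log2FC of 0.56 (limma adjusted p = 0.193) and Gja3 of 1.23 (limma adjusted p = 0.196). The median was 0.48 over the tested genes and 0.04 with no filter on low values.

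**Figure D4:**
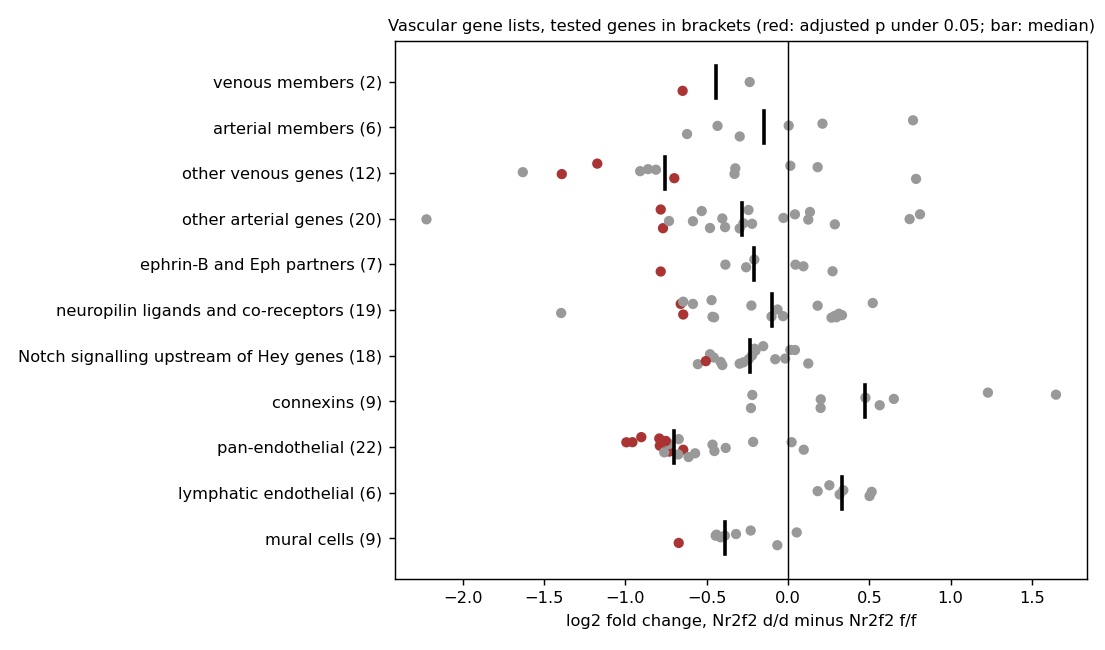
Log2FC, Nr2f2 d/d minus Nr2f2 f/f (x axis), of each tested gene in 11 vascular lists, with the number tested in brackets, the median as a black bar and genes with an adjusted p under 0.05 in red. Medians are lowest for other venous genes (-0.76), which include the deleted gene Nr2f2, and for pan-endothelial genes (-0.70). Without Nr2f2 f/f replicate 1 these 2 medians are -0.47 and -0.60. Medians lie above 0 for connexins (0.48) and lymphatic endothelial genes (0.33).

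Markers of other cells also differed between the groups, and their part in the results above was not tested. Lymphatic endothelium, another site of Nrp2, had 6 tested markers, with a median of 0.33 and 0 called by limma. The 1 at the study's threshold, Reln (0.425 and 0.803 FPKM), passed the filter only through the mutants, so its direction was favoured by the filter. The list had summed FPKM of 12.7 to 20.1 in control uteri and 15.7 to 24.6 in mutant uteri. Of its defining markers Ccl21a was listed at 0 in all libraries and Prox1 was under the filter. Mural cells, which surround small vessels, had 8 of 9 markers below 0, with a median of -0.39 and sums of 235 to 292 and 175 to 202 FPKM. Rgs5, the pericyte marker, fell by 0.67 on the log2 scale (limma adjusted p = 0.0154) and passed in 5 of the 8 fits with 1 library removed. The other 8 did not pass the adjustment.

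Outside vessels, the stromal list held 4 of 10 markers above 0, with a median of -0.13 that was -0.22 to -0.03 with 1 library removed. The matrix genes Dcn (410 and 705 FPKM) and Col1a2 (237 and 694 FPKM, limma adjusted p = 0.0484) rose and the transcription factor gene Hand2 (50.9 and 31.2 FPKM) fell. The sums were 1532 to 1788 FPKM in control uteri and 2165 to 3767 in mutant uteri, and their difference lay mainly in Dcn, Col1a2 and Col1a1 (175 and 608 FPKM, limma adjusted p = 0.0626), while Vim was at 380 and 237 FPKM (limma adjusted p = 0.113). Col1a1, Col1a2, Vim and, below, Cd3e were singled out after their values were seen. Epithelial markers were above 0 in 9 of 10, with 1 that rose (Krt8), a median of 0.28 and sums of 847 to 902 and 1079 to 1222 FPKM. Of T and NK cell markers 8 were tested, with a median of 0.69, and Gzmb rose by 1.69 on the log2 scale (limma adjusted p = 0.0328). Cd3d (0.375 and 0.965 FPKM), the other one called, and Cd3e (0.281 and 0.728 FPKM) passed the filter only through the mutants, which favoured that direction. The sums were 61.8 to 80.6 and 96.7 to 373 FPKM, and the T cell genes Cd4 and Cd8a were under the filter. Gland markers were below 0 in 6 of 7, with 1 that fell (Spink1), a median of -1.03 and sums of 150 to 3291 and 33.9 to 90.4 FPKM. The other lists had 0 or 1 gene called by limma. Mesothelium had 5 of 6 above 0, with a median of 0.56, smooth muscle 8 of 10 (0.14), macrophages 8 of 9 (0.31), skeletal muscle 3 of 3 (0.32), ovary and oviduct 2 of 2 (0.38) and adipocytes 1 of 3 (-0.16). With 1 library removed the median was 0.18 to 0.51 for macrophages, 0.03 to 0.52 for skeletal muscle and 0.16 to 0.92 for ovary and oviduct. Of the named genes of these lists, Krt8 passed in 8 of the 8 fits with 1 library removed, Dcn and Cd3d in 4, and Hand2, Col1a2, Gzmb and Spink1 in 2.

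How the 8 genes varied within groups was described by their deviations from the group means over the 8 libraries, with no test. Ephb4 and Gja4 deviated together (Pearson r = 0.95), with Nr2f2 d/d replicate 3 high for both, and Nrp2 and Efnb2 deviated in opposite directions (r = -0.82), with Nr2f2 f/f replicate 2 highest of the controls for Nrp2 and lowest for Efnb2. Hey1 followed the mean of the pan-endothelial list (r = 0.89), Nrp2 did less (r = 0.60), and Gja5 (0.47), Gja4 (0.44), Nrp1 (0.28) and Ephb4 (0.25) less again, while Efnb2 (-0.33) and Hey2 (-0.51) deviated the other way. With 8 libraries, 6 degrees of freedom and shared library totals, such values describe these libraries only.

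Among all genes tested, those whose deviations were most like Nrp2 were Dgkz (r = 1.00, rho = 1.00), D830026I12Rik (r = 0.96, rho = 0.93) and Rapgefl1 (r = 0.95, rho = 0.98), over 8 libraries. For Ephb4 they were Cdkn2c, Pimreg and Cenpp (r = 0.98 to 1.00), and for Gja4 Cenpq, Nudcd3 and Podxl (r = 0.97 to 0.98). For Efnb2 they were Tspan1, Zfp768 and Sept9 (r = 0.99), for Nrp1 they included Thrap3 and Mir6945 (r = 0.98), and for Hey1 they were Gipc1, Nupr1 and Cdan1 (r = 0.98 to 0.99). For Hey2 they were Cdk2ap2, Ube2w and Rnf5 (r = 0.94 to 0.97), and for Gja5 they included Mir7045 and Pthlh (r = 0.97 to 0.98). Picked as the highest of 14323 genes, values this high carry no weight on their own.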

How the data were processed

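RNA-seq of whole uterus was taken from 4 Nr2f2 f/f and 4 Nr2f2 d/d libraries. The authors trimmed paired-end reads with cutadapt (version 1.12), aligned them to mm10 with STAR (version 2.5.2b) and counted fragments per gene with featureCounts (version 1.5.0-p1), and the submitters' processing notes also name Cufflinks (version 2.0.2). The authors deposited FPKM, rounded to 3 decimals. The annotation, strand setting and FPKM formula are not given in the sources used here, so fragments of overlapping genes may be assigned either way. The study tested counts, which were not used here. Because the deposited values are FPKM, genes averaging 0.5 FPKM or more (14323) were compared as log2(FPKM + 0.5) with limma 3.58.1 in R 4.3.3 (mean-variance trend, two-sided, Benjamini-Hochberg adjustment over all of them, call at 0.05). Exact permutation tests were two-sided over 70 arrangements.

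FPKM give relative abundance, so that a few very abundant transcripts shift all others. Depth was recovered from single-exon genes of 50 to 400 bases: at 1 total per library (tried in steps of 50000) 81.2% to 84.5% of their values came within 0.04 of a whole fragment, against medians of 2.90% to 3.80% at other totals. Totals were 61500000 to 92550000 fragments, and 3 fragments on a gene of 1 kb are worth 0.0324 to 0.0488 FPKM. Counting errors cover counting only.

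Groups and replicate numbers came from the sample titles, and the columns were matched by the sample descriptions, whose numbers differ: the columns are numbered 1, 2, 3 and 5 for control replicates 1 to 4, and 1, 3, 4 and 5 for mutant replicates 1 to 4, so mutant replicate 3 is column 4. The genes named are the 8 members, Nr2f2, in each list of related genes those with an adjusted p under 0.05 and the 3 with the smallest p, in each cell type list the 2 with the smallest p, and for each member the 3 genes with the most similar deviations. Untested list markers (Ccl21a, Prox1, Cd4 and Cd8a), the first 4 genes of the pan-endothelial list, and Col1a1, Col1a2, Vim and Cd3e, chosen after their values were seen, are named besides. Some genes that the rule selects are not reported here. The members and the lists were chosen with earlier results of these data known, and the lists were written from general knowledge. On simulated data for 14323 genes with 200 changed, limma recovered 88 of 109 genes changed 2-fold and 83 of 91 changed 4-fold, and 14 of 185 calls were unchanged genes. The simulated noise was independent for each gene and library, and no change under 2-fold was planted. These rates therefore do not cover differences as small as those of the 8 genes. The settings varied were the value added (0.1 and 1), the filter, 2 other scalings, eBayes without trend or robust, the replicate number as a block, 4 reference genes in place of 22, and each library left out. Tables and figures were made with Python 3.11.15 and matplotlib 3.10.9.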

Additional observations from a re-analysis of the deposited data

Results flagged for a closer look

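Of 102 groups of 4 libraries examined (51 genes in both genotypes), 12 held 1 library that stood apart from the other 3 by Dixon's criterion, which chance alone gives in about 1 of 20 groups. Among the arterial and venous identity genes, Ephb4 was 19.1 FPKM in Nr2f2 d/d replicate 3, where the others held 14.9 to 15.6. Efnb2 was 10.2 FPKM in Nr2f2 f/f replicate 2, where the others held 27.9 to 30.6. Hey1 was 7.64 FPKM in Nr2f2 d/d replicate 3, where the others held 5.66 to 5.87. Hey2 was 2.79 FPKM in Nr2f2 f/f replicate 4, where the others held 1.91 to 2.00.

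Nr2f2 d/d replicate 3 was also apart for the deleted gene Nr2f2, at 6.90 FPKM against 9.42 to 9.74, for Efnb3, at 3.99 FPKM against 5.61 to 5.74, and for Kdr, at 10.5 FPKM against 7.79 to 8.24. Nr2f2 f/f replicate 2 was apart for the lymphatic marker Mmrn1, at 4.23 FPKM against 1.32 to 1.69, and for the gland gene Spink1, at 1332 FPKM against 115 to 288. The remaining 3 were Dcn at 673 FPKM in Nr2f2 d/d replicate 2 against 713 to 719, C1qb at 74.3 FPKM in Nr2f2 f/f replicate 3 against 36.2 to 42.7, and Fabp4 at 7.33 FPKM in the same library against 1.53 to 1.91.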

How the results depend on the processing

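No value past a threshold changed sign under any alternative. The replicate numbers of the titles do not pair the libraries: deviations of same-numbered libraries correlated at -0.20, -0.17, 0.05 and -0.04, and no library correlated best with its own number. The 3 pairs that share a number in the column names correlated at -0.20, 0.15 and -0.04, and no block by those numbers was run. With the title's replicate number as a block, 1 gene had an adjusted p under 0.05 in limma instead of 375, with Nrp2 at -0.65 (adjusted p = 0.113) and Nr2f2 at -1.39 (adjusted p = 0.0714). With other added values, filters, scalings and eBayes settings, every one of the 8 log2 fold changes stayed on its side of the adjusted threshold. At the study's threshold Efnb2 was lost with eBayes without trend, no filter, quantile normalization and the block, and Hey2 was gained with 0.1 added. With 1 added before the log2, Ephb4 relative to the pan-endothelial genes was 0.36 (exact permutation p = 0.0571). Over the 8 fits with 1 library removed, the number of genes with an adjusted p under 0.05 was 42 to 348, with 62, 208 and 95 when control replicate 1, 3 or 4 was removed, and 57 and 42 when mutant replicate 1 or 2 was. In the same fits the log2 difference was -0.74 to -0.55 for Gja4, 0.40 to 0.91 for Efnb2, 0.11 to 0.32 for Hey1, -0.06 to 0.09 for Gja5, -0.36 to -0.23 for Nrp1 and -0.57 to -0.33 for Hey2, relative to the pan-endothelial genes it was 0.28 to 0.47 for Ephb4 and 0.98 to 1.58 for Efnb2, and the median of the other venous genes was -0.84 to -0.47. The cause of these shifts was not tested. The median of the adipocyte list, with 3 genes, went from -0.63 to 0.62 and that of smooth muscle from -0.04 to 0.31. The exact p under 0.05 was lost in 5 of 8 such fits for Efnb2, 4 for Gja4, 4 for relative Ephb4 and 2 for relative Efnb2, although 3 against 4 can still give p = 0.0286.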
